A study of Ictalurus punctatus with 54 samples.

Results

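Gill transcriptomes of channel catfish fingerlings exposed to copper sulfate, challenged at once with the bacterium and sampled 1 h later (Cu0h-1h, 6 fish) were compared with those of untreated fish (control, 6 fish). The groups were taken from the labels deposited with the data, and all 37586 transcripts of the files belong to the comparison, as they do in the whole series of 54 fish. The Cu0h-1h fish had both copper and bacteria, whereas the control fish had neither and were sampled at 0 h, before any exposure. The labels name the bacterium Flavobacterium columnare, and the study calls it F. covae. The study's methods give copper sulfate at 2.1 mg/L, set from the total alkalinity as in a typical farm treatment. The deposited description has the same number per mL. Fish averaged 7.3 g and were bred at 1 research center. The other groups used below had 6 fish each. Cu0h fish had copper and were sampled at once, Cu0h-4h and Cu0h-24h fish were sampled 4 h and 24 h after immediate challenge, and Cu24h fish were kept for 24 h after copper treatment and then sampled. Cu24h-1h, Cu24h-4h and Cu24h-24h fish were kept in that way and then challenged. The labels call those 24 h an exposure, and the methods describe them both as static holding and as recovery in flowing freshwater, so whether copper was present throughout is unclear. Each fish was a separate individual. The study's methods give several replicate tanks per treatment group, but the tank of each sampled fish is not stated in the labels or methods. The 6 fish of a group may thus share tanks, and p-values may partly measure differences between tanks. Fish handled for 1 h without copper or bacteria were not analysed here.

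The gill is a thin, folded epithelium in direct contact with water. It exchanges gases, its ionocytes take up sodium, chloride and calcium, and its mucous cells and leukocytes form a first barrier to waterborne bacteria. Copper is known to inhibit sodium uptake across the gill, and columnaris bacteria attach to gill tissue and can cause its necrosis. The comparison with untreated fish addresses the combined early change after copper and challenge. The transcripts carry Ensembl numbers, of which 0 could be paired with a gene name, so transcripts are described by their levels and not by gene, and the gill label could not be checked against marker genes. In bulk tissue, fewer cells of a type and less RNA per cell cannot be told apart.

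Each file gives effective counts, that is, estimated counts per transcript rounded to whole numbers. They summed to between 665745 and 1128932 in the Cu0h-1h fish (median 853693) and to between 589664 and 738136 in the control fish (median 700988). Of the 37586 transcripts, 7839 had no count in any of the 12 fish and 23143 were counted but fell below the low-count filter. The other 6604 were tested and held 91.1% of the effective counts of the 12 fish. Cu0h-1h replicate 1 was the least like the rest of its group, with a mean correlation of 0.809 to the other 5 fish on the log2(CPM + 1) scale, CPM being counts scaled to the library total, where the next lowest fish of the group had 0.836. The control fish had 0.834 to 0.842 among themselves.

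The Cu0h-1h libraries were spread over more transcripts than the control libraries. With every library thinned at random to 352013 counts, the smallest total of the series, the Cu0h-1h fish had 16349 to 17301 detected transcripts (median 16982), against 14597 to 15480 in the control fish (median 15110). Every Cu0h-1h fish thus lay above every control fish, although all libraries had the same depth. The means were 16923 ± 361 and 15082 ± 317 (SD, n = 6 each), a difference of 1841 transcripts with p = 0.00216 in a two-sided exact permutation test, which is the smallest p that 924 splits of the fish allow. Unchallenged fish with copper spread wider, from 12525 to 17947 in Cu0h and from 11338 to 18839 in Cu24h. Some of them lay above every Cu0h-1h fish and others below every control fish.

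The most abundant transcripts took a smaller part of the counts in Cu0h-1h. The 100 most abundant transcripts of each fish held 29.9% to 39.5% of the effective counts in the Cu0h-1h fish (median 31.4%), against 39.8% to 44.0% in the control fish (median 42.6%). The groups did not overlap, and the closest pair was Cu0h-1h replicate 1 and control replicate 4. The difference of the means was -9.59 percentage points (two-sided exact permutation test, p = 0.00216, adjusted p = 0.00216 over these 2 measures). When the 100 transcripts were instead taken from the 42 fish of the other 7 groups, a choice made after the data were seen, they held 30.8% ± 1.84 in Cu0h-1h and 40.7% ± 1.36 in control (SD, n = 6 each). A single transcript was the most abundant in 5 of the 6 fish of each group. It held 2.15% to 3.06% of the counts in Cu0h-1h and 4.06% to 4.72% in control. In unchallenged fish with copper, the 100 most abundant transcripts of each fish held 31.2% to 46.5% in Cu0h and 29.6% to 49.8% in Cu24h.

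**Figure D1:**
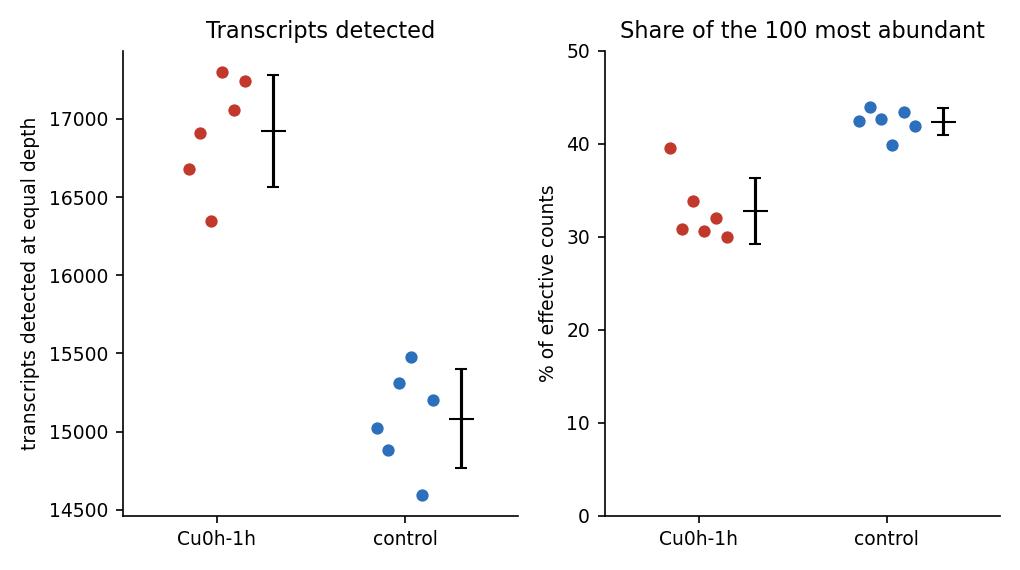
Transcripts detected at an equal depth of 352013 counts (left) and the share of the effective counts held by the 100 most abundant transcripts of each fish, in percent (right), for Cu0h-1h (red) and control (blue). Points are single fish and black marks give the mean with its SD (n = 6). The groups do not overlap in either panel, and Cu0h-1h replicate 1, at 39.5%, is the fish closest to control in the right panel.

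A large part of the tested transcriptome differed between Cu0h-1h and control fish. With edgeR's quasi-likelihood F-test, 2333 DEGs were called, which is 35.3% of the 6604 transcripts tested. Of these, 1252 were upregulated (19.0% of those tested) and 1081 downregulated (16.4%). A DEG had an FDR (Benjamini-Hochberg) below 0.05 and a log2 fold change above 1 in size. A further 710 transcripts had an FDR below 0.05 with a change within 2-fold, and 3561 did not reach that FDR. The median log2 fold change over all tested transcripts was 0.14. The part of the higher detection in Cu0h-1h in these calls was not tested. The values of the 6 fish of each group did not overlap in 1280 of the DEGs, 650 upregulated and 630 downregulated, whereas 1520 of all tested transcripts, or 23.0%, were without overlap. Leaving out 1 fish at a time gave between 2199 and 2671 DEGs, the highest without Cu0h-1h replicate 1. Between 2042 and 2214 of the 2333 transcripts stayed called in the same direction, and 0 were called in the opposite direction in any of these 12 fits. The fits reuse the fish whose values gave the DEGs, so this is no independent support.

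Most changes were moderate in size. The median DEG rose by 1.56 on the log2 scale among the upregulated transcripts (interquartile range 1.25 to 1.98), and the median size of a downregulated DEG was 1.49 (interquartile range 1.23 to 1.77). Changes of more than 4-fold were found in 302 upregulated DEGs (24.1%) and 165 downregulated DEGs (15.3%). Changes of more than 8-fold were found in 55 and 27. When the test asked whether the change itself exceeded 2-fold (glmTreat), 396 transcripts passed as upregulated and 338 as downregulated. The coefficient of variation was higher in the group where a set was low. Fewer counts raise it by sampling alone, and that part was not tested. The median coefficient of variation of the upregulated DEGs was 0.319 in Cu0h-1h and 0.522 in control, and that of the downregulated DEGs was 0.434 in Cu0h-1h and 0.278 in control. Over all tested transcripts the medians were 0.377 in Cu0h-1h and 0.404 in control.

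**Figure D2:**
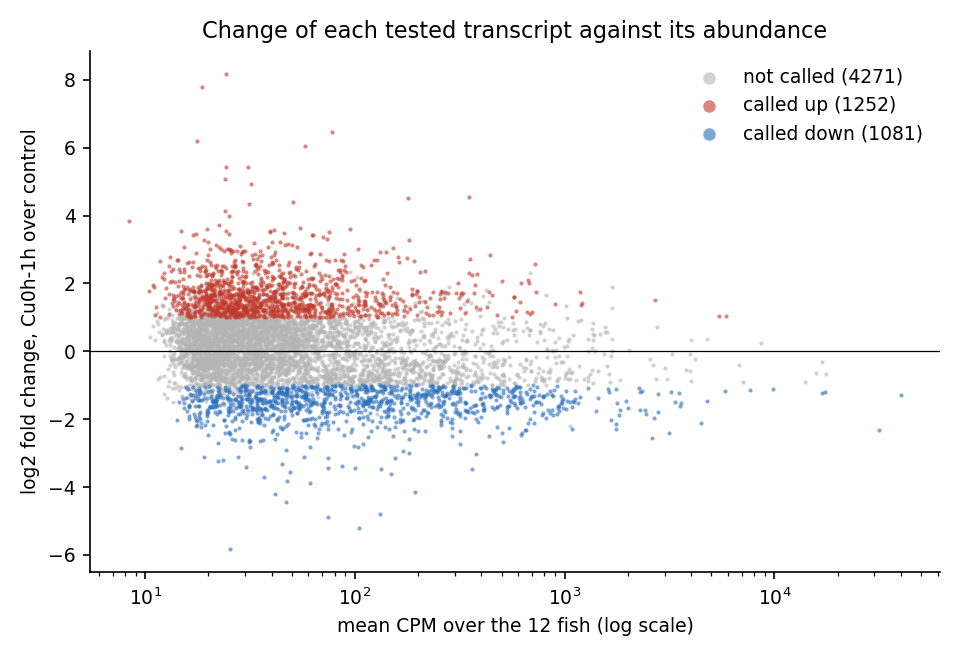
Log2 fold change of Cu0h-1h over control (y axis) for each of the 6604 tested transcripts against its mean CPM over the 12 fish (x axis, log scale). Red points are the 1252 upregulated and blue points the 1081 downregulated DEGs, and grey points were not called. Blue points reach further to the right, into the most abundant transcripts, than the bulk of the red points.

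Direction went with abundance. Tested transcripts were divided into 5 abundance groups of equal size by their mean CPM in the 42 fish of the other groups, which the test did not use. Since fewer counts make any call harder, the directions are compared within an abundance group. Near the filter, a transcript low in one group was tested only if high enough in the other, so the balance of directions in the least abundant groups depends partly on the filter. Without the filter, 1561 transcripts were upregulated and 1592 downregulated in all. In the most abundant one, above 107 CPM, 421 of 1321 transcripts were downregulated (31.9%) and 162 upregulated (12.3%), and the median log2 fold change was -0.58. In the middle one, from 29.1 to 45.8 CPM, 172 of 1320 were downregulated (13.0%) and 308 upregulated (23.3%), with a median of 0.33. In the least abundant one, below 19.3 CPM, 120 were downregulated (9.08%) and 204 upregulated (15.4%). Among the 100 most abundant transcripts of the other fish, 37 were downregulated and 6 upregulated, and 71 had a log2 fold change below 0. The smaller share of the most abundant transcripts described above is part of the same pattern and is no separate evidence for it.

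**Figure D3:**
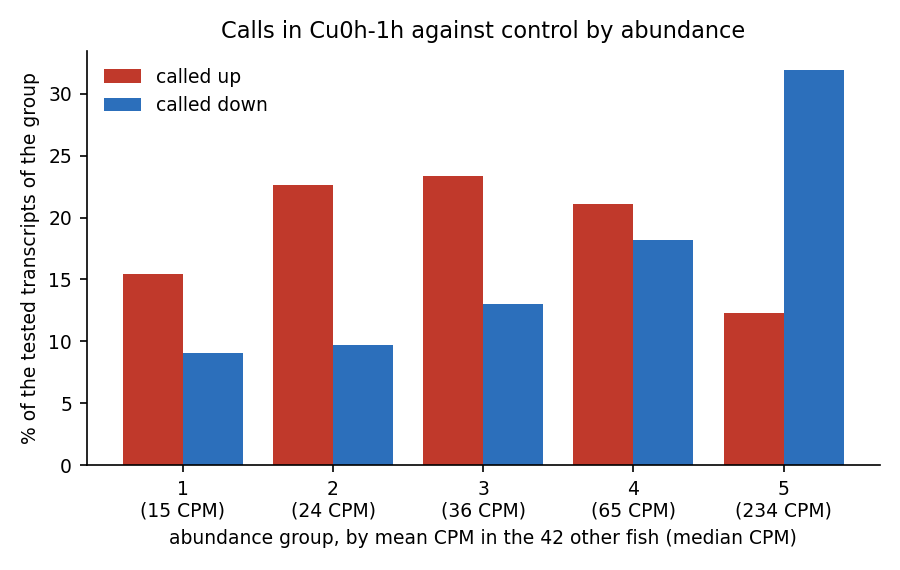
Percentage of tested transcripts called up (red) or down (blue) in Cu0h-1h against control in each of 5 abundance groups, from the least abundant (1) to the most abundant (5), with the median CPM of each group in the 42 other fish. Upregulated DEGs outnumber downregulated ones in groups 1 to 4, at 15.4% and 9.08% in group 1 and 21.1% and 18.2% in group 4, and in group 5 the order turns, at 12.3% and 31.9%.

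Few transcripts were present in all fish of one group and absent from the other. At equal depth, 41 transcripts were detected in all 6 Cu0h-1h fish and in no control fish, with a median of 3.67 counts per Cu0h-1h fish, and 4 of them had passed the low-count filter. In the opposite direction there were 3, of which 1 was tested. Of the 37586 transcripts, 11753 were detected in more Cu0h-1h than control fish and 6733 in more control than Cu0h-1h fish. Another 9666 were detected in the same number of both, among them 6003 in all 12, and 9434 in no fish. The imbalance is part of the higher detection in Cu0h-1h described above and is no separate evidence for it.

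Transcripts to be followed singly were the 2 with the largest upregulation and the 2 with the largest downregulation, taken among DEGs without overlap between the groups and with a mean level of at least 50 CPM. The rule left 281 upregulated and 502 downregulated transcripts to choose from. ENSIPUT00000007028 stood at 39.3 to 279 CPM in the Cu0h-1h fish (median 115), against 0 to 5.28 CPM in the control fish (median 0.868). All Cu0h-1h fish were above all control fish, which together had 5 counts, 3 of them having none. edgeR gave it a log2 fold change of 6.48 with a standard error of 0.67 and an FDR of 4.68e-07. ENSIPUT00000009696 was at 42.5 to 197 CPM in Cu0h-1h (median 93.0), against 0 to 6.28 CPM in control (median 0.868). Here too the groups were far apart, with no count in 3 control fish. edgeR gave it a log2 fold change of 6.05 with a standard error of 0.61 and an FDR of 4.49e-07.

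ENSIPUT00000019250 was downregulated in all Cu0h-1h fish, at 1.93 to 10.2 CPM (median 4.16), against 121 to 291 CPM in control (median 197). The highest Cu0h-1h fish was thus far below the lowest control fish, and edgeR gave a log2 fold change of -5.20 with a standard error of 0.35 and an FDR of 1.74e-07. ENSIPUT00000010649 was at 0 to 12.6 CPM in Cu0h-1h (median 3.90), 2 fish having no count, against 48.2 to 231 CPM in control (median 137). Its control fish varied by more than 4-fold, but the lowest of them was above every Cu0h-1h fish. edgeR gave a log2 fold change of -4.90 with a standard error of 0.56 and an FDR of 7.60e-06. Each of the 4 transcripts kept its direction and its call in all 21 alternative fits. Those fits reuse the fish whose values chose the transcripts, so this is no independent support.

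The same 4 transcripts were followed in fish that had copper alone. They had been chosen for their values in Cu0h-1h and control fish, so comparisons that reuse either group are given as a description, with no p. The Cu0h fish had ENSIPUT00000009696 at 55.2 ± 36.5 CPM (SD, n = 6), all above the control fish, with a log2 fold change against control of 5.12. For Cu0h-1h against Cu0h its log2 fold change was 0.85, and the groups overlapped. ENSIPUT00000010649 was at 4.78 to 39.5 CPM in Cu0h, a log2 fold change of -2.85 against control without overlap. ENSIPUT00000007028 was at 141 ± 92.0 CPM in Cu0h-1h and 34.5 ± 33.0 CPM in Cu0h (SD, n = 6 each), with a log2 fold change of 2.02 and overlapping groups. Its Cu0h fish, at 9.7 to 98.9 CPM, were nevertheless all above the control fish, at 0 to 5.28 CPM. Cu0h against control has no log2 fold change for this transcript, because the low-count filter removed it there. ENSIPUT00000019250 was split within Cu0h, with 287 and 162 CPM in replicates 5 and 6, no count in replicates 1 to 3 and a level far below the lowest control fish in replicate 4. It was not tested against Cu0h in the Cu0h-1h fish because it did not pass the filter there.

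Fish challenged after 24 h and also sampled at 1 h (Cu24h-1h) are set beside the same Cu0h-1h fish, again as a description. These groups did not overlap in any of the 4 transcripts, 3 of which passed the filter for the fit. ENSIPUT00000007028 was at 141 ± 92.0 CPM in Cu0h-1h and 12.5 ± 7.46 CPM in Cu24h-1h (SD, n = 6 each), with a log2 fold change of 3.42. ENSIPUT00000009696 was at 107 ± 58.5 CPM in Cu0h-1h and 8.61 ± 10.6 CPM in Cu24h-1h (SD, n = 6 each), with a log2 fold change of 3.54. ENSIPUT00000019250 was at 4.87 ± 2.98 CPM in Cu0h-1h and 215 ± 76.2 CPM in Cu24h-1h (SD, n = 6 each), with a log2 fold change of -5.42. ENSIPUT00000010649, at 4.22 ± 4.61 and 34.2 ± 16.9 CPM (SD, n = 6 each) in Cu0h-1h and Cu24h-1h, did not pass it. Later after immediate challenge, ENSIPUT00000007028 was at 95.6 ± 64.2 CPM at 4 h and 594 ± 126 CPM at 24 h, and ENSIPUT00000019250 at 11.3 ± 7.96 CPM at 4 h and, from 2 counts in all, 0.305 ± 0.475 CPM at 24 h (SD, n = 6 each). In fish challenged after 24 h, ENSIPUT00000007028 was at 117 ± 36.5 CPM at 4 h and 360 ± 115 CPM at 24 h (SD, n = 6 each). ENSIPUT00000019250 was there at 123 ± 102 CPM at 4 h and, from 3 counts in all, 0.534 ± 0.591 CPM at 24 h. Low levels of this transcript at 24 h were thus found in both schedules.

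**Figure D4:**
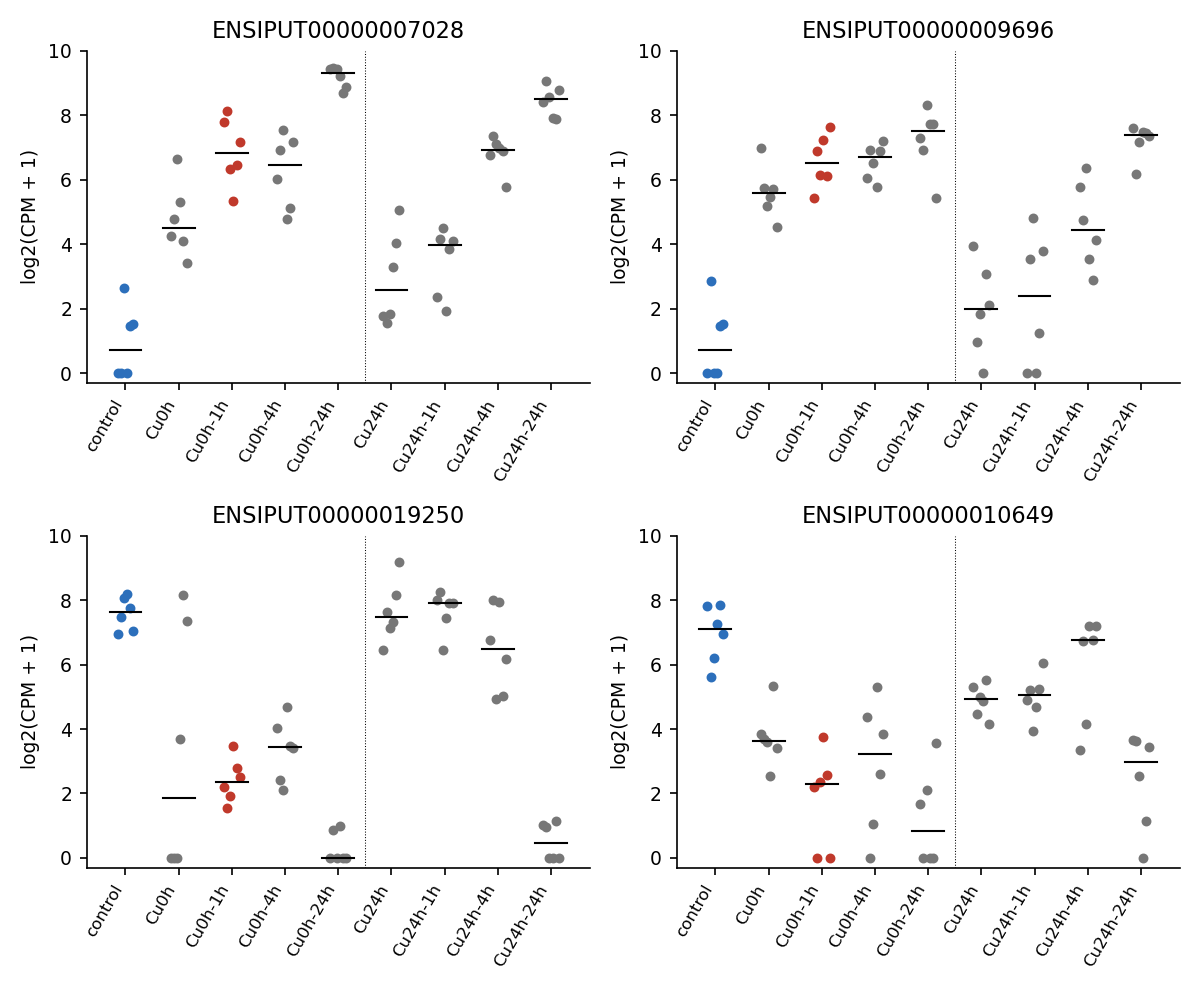
Levels of the 4 transcripts as log2(CPM + 1) in all 54 fish, by group (6 fish each), with a line at the median. Control fish are blue and Cu0h-1h fish red. Groups left of the dotted line run from control through copper alone to 1, 4 and 24 h after immediate challenge, and those right of it from 24 h after copper to 1, 4 and 24 h after challenge. In ENSIPUT00000019250, the Cu0h-1h fish lie at 1.93 to 10.2 CPM, below the 121 to 291 CPM of the control fish, and the Cu24h-1h fish at 86.1 to 305 CPM.

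Because the Cu0h-1h fish differ from control in copper, bacteria and time, the comparisons of copper alone with control and of challenged with copper-only fish are given side by side. Cu0h against control gave 161 DEGs among 5134 transcripts tested (3.14%), 98 upregulated (1.91%) and 63 downregulated (1.23%). Cu0h-1h against Cu0h gave 515 among 7625 (6.75%), 137 upregulated (1.80%) and 378 downregulated (4.96%). The first shares its control fish with the comparison described here and the second its Cu0h-1h fish, so their lists are not set against it as evidence. For Cu0h-1h against Cu0h the study reports no DEGs, from gene-level counts made with other tools. The Cu0h group was uneven. At equal depth its fish had 12525 to 17947 detected transcripts, replicates 5 and 6 being the highest, and without these 2 fish the counts were 705 DEGs for Cu0h against control and 2506 for Cu0h-1h against Cu0h. That setting was chosen after the data were seen. The counts also moved with single fish, between 66 (without control replicate 4) and 277 (without Cu0h replicate 5) in the first comparison and between 2 (without Cu0h-1h replicate 4 or 6) and 1206 (without Cu0h replicate 6) in the second.

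Fish sampled 1 h after challenge differed between the schedules. These fish also differed in the 24 h holding after copper, which this comparison does not separate from a difference in the response to challenge. A test that also takes in the unchallenged Cu0h and Cu24h fish was not run. Cu0h-1h against Cu24h-1h gave 1002 DEGs among 6936 transcripts tested (14.4%), 520 upregulated (7.50%) and 482 downregulated (6.95%) in Cu0h-1h. At equal depth the Cu0h-1h fish had 16349 to 17301 detected transcripts and the Cu24h-1h fish 14871 to 16376. The part of this difference in the DEGs was not tested. With 1 fish left out the number stayed between 808 and 1253.

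The DEGs were then read in fish that the comparison had not used. In Cu0h-4h against Cu0h, which shares no fish with it, 1093 of the 1214 upregulated transcripts that were tested had a log2 fold change above 0 (90.0%), against 53.7% of all transcripts tested there. Of the 1010 downregulated transcripts tested, 71 were above 0 (7.03%). The median log2 fold changes were 0.67 for the upregulated, -0.82 for the downregulated and 0.08 for all 7546 transcripts tested. An unadjusted p under 0.05 in the same direction was found for 34.9% of the upregulated and 48.7% of the downregulated transcripts, where 10.4% and 12.3% of all tested transcripts passed it upward and downward. Few passed the DEG threshold, with 35 DEGs in all (0.464% of those tested), 22 upregulated (0.292%) and 13 downregulated (0.172%). Of its 22 upregulated DEGs, 16 were upregulated in Cu0h-1h against control (72.7% of the 22 and 1.28% of the 1252), and of its 13 downregulated DEGs, 12 were downregulated there (92.3% of the 13 and 1.11% of the 1081). Of all 6604 transcripts tested in Cu0h-1h against control, 19.0% were upregulated and 16.4% downregulated. The number of 35 rested on single fish, between 2 (without Cu0h-4h replicate 5) and 504 (without Cu0h replicate 6). The number of transcripts detected at equal depth was 13404 to 17253 in Cu0h-4h (median 16971) and 12525 to 17947 in Cu0h (median 13431). These ranges overlapped, since Cu0h replicates 5 and 6 were above every Cu0h-4h fish, and the part of detection in the result was not tested.

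In Cu24h-1h against Cu24h, which shares no fish with the comparison either, 933 of the 1252 upregulated and 1025 of the 1081 downregulated transcripts passed the filter. Of the upregulated ones, 61.4% were above 0, and of the downregulated ones 40.9%, against 47.1% of all 6225 tested. The medians were 0.15 and -0.12, against -0.04 for all. This comparison had 40 DEGs (0.643% of those tested), 19 upregulated (0.305%) and 21 downregulated (0.337%), and between 23 (without Cu24h-1h replicate 3) and 144 (without Cu24h replicate 3) with 1 fish left out. Of its 21 downregulated DEGs, 12 were downregulated in Cu0h-1h against control (57.1% of the 21 and 1.11% of the 1081), and 2 were upregulated there. Of its 19 upregulated DEGs, 1 was upregulated in Cu0h-1h against control (5.26% of the 19 and 0.0799% of the 1252), and 3 were downregulated there. The shares over all 6604 transcripts tested in Cu0h-1h against control were 19.0% upregulated and 16.4% downregulated. At equal depth, the Cu24h fish ran from 11338 to 18839 detected transcripts, a wider range than in any of the other 8 groups, and replicates 1 and 3 were the lowest. In these 2 fish the upregulated set held 2.12% and 2.65% of the counts, below all Cu24h-1h fish (5.17% to 8.21%), whereas the other 4 Cu24h fish had 7.76% to 9.84%. The medians above therefore average over an uneven Cu24h group, and they were not tested against those of Cu0h-4h and Cu0h, where other members passed the filter.

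The part of each library taken by the called transcripts shows the size of the change in whole fish. The values in Cu0h-1h and control fish chose these transcripts, so the shares in those fish are a description. Such a choice also favours a place between them for any other group, so that place is no evidence of a graded change. The 1252 upregulated transcripts held 10.5% to 17.9% of the effective counts of the Cu0h-1h fish (median 16.4%) and 3.68% to 3.98% of those of the control fish (median 3.88%). The 1081 downregulated transcripts held 19.0% to 26.4% in Cu0h-1h (median 20.7%) and 42.7% to 49.1% in control (median 45.7%). The lowest Cu0h-1h fish for the upregulated set was at 10.5%, whereas the control fish lay close together. In fish with copper alone (Cu0h) the upregulated set held 6.18% to 10.4% and the downregulated set 27.5% to 38.9%, both between the 2 groups. Cu0h was split too, with 9.60% and 10.4% for the upregulated set in replicates 5 and 6, and 28.5% and 27.5% for the downregulated set. Replicates 1 to 4 were at 6.18% to 8.24% and 33.9% to 38.9%. After immediate challenge the medians were 13.7% and 24.6% at 4 h and 14.8% and 22.2% at 24 h. After challenge of fish held for 24 h they were 6.86% and 36.2% at 1 h and 8.34% and 34.9% at 4 h, and the ranges at 24 h were 11.5% to 14.9% and 21.9% to 26.7%. Cu24h fish without challenge were split, at 2.12% to 9.84% for the upregulated set (median 7.95%) and 27.4% to 50.9% for the downregulated set (median 35.1%).

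**Figure D5:**
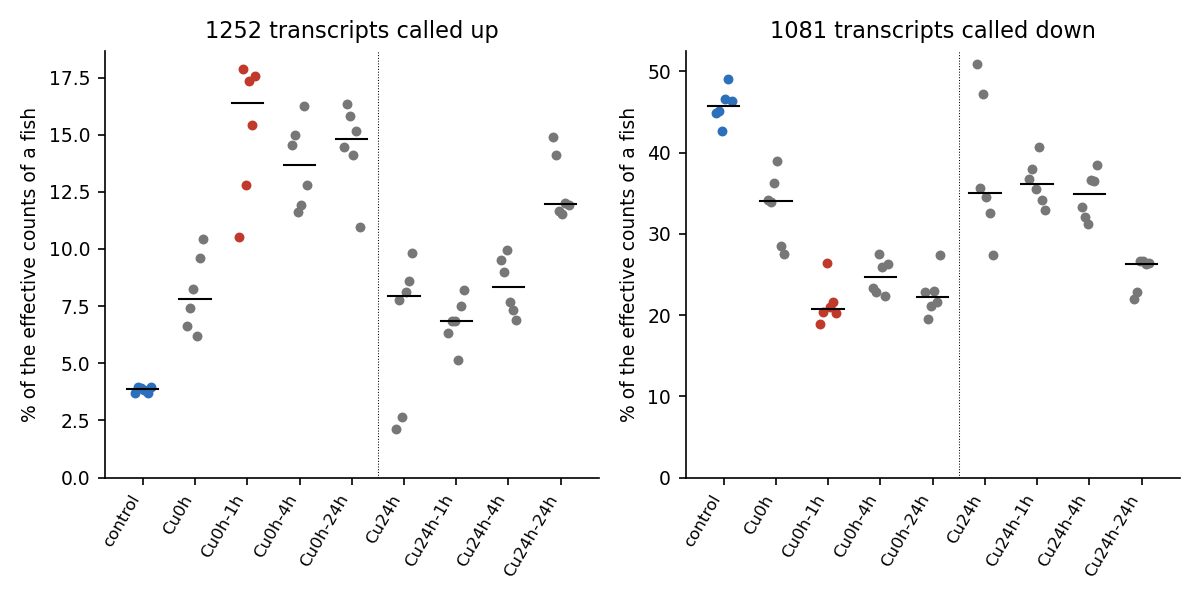
Percentage of the effective counts of each fish held by the 1252 transcripts called up (left) and the 1081 called down (right) in Cu0h-1h against control, in all 9 groups (6 fish each, line at the median). Control (blue) and Cu0h-1h (red) fish chose the transcripts. The medians of the other groups lie between theirs of 3.88% and 16.4% on the left and of 45.7% and 20.7% on the right, which the choice favours. Single Cu24h fish reach 2.12% and 50.9%.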

How the data were processed

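The labels describe poly(A) libraries from gill RNA of single fish. Per the labels' processing notes, the authors used Trim Galore 0.5.0, Bowtie2 2.3.4.3, eXpress 1.5.1 and DESeq2 1.24.0, with no roles given. The deposited values are effective counts, an estimated count per Ensembl transcript that the authors rounded to whole numbers, without normalization. Their totals are far below the read depth that the study's methods give, and the reason is not stated. The annotation release is not given in the sources here, and the study's methods describe other tools for its own tables. How reads were divided between similar transcripts affects every value. The 6 control files end their lines with a carriage return and the other 48 do not. Whether they were made separately is not given and cannot be told apart from the group.

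Files were joined by transcript. Each comparison was fitted on its 12 libraries with edgeR 4.0.16 in R 4.3.3 (filterByExpr with minimum count 10 and minimum total 15, TMM, quasi-likelihood F-test). The study's methods name the same filter function, TMM and F-test, but apply them to gene-level counts. The standard error of a log2 fold change is its size over the square root of F, an approximation. CPM values of the followed transcripts and of the abundance groups use TMM over all 54 libraries. Counts of transcripts without overlap, coefficients of variation, the 50 CPM rule and the mean CPM over the 12 fish use TMM over the 12 libraries. The mean correlations of fish within a group use CPM from library totals alone. A chi-square of the counts divided by the transcripts compared was at least 5.29 in all 30 pairs within Cu0h-1h and within control, above the value of about 1 that repeats of 1 library would give. Named transcripts were the 2 largest changes in each direction among DEGs without overlap and with a mean of 50 CPM or more. A longer list and lists of genes and cell type markers applied only if gene names could be paired, and were not used. The comparison, the rule and the alternatives were chosen with earlier results of these data known. Alternatives were DESeq2 1.42.0's size factors and Wald test, limma 3.58.1's voom with sample weights, no filter, 1 fit of 9 groups, the older edgeR method, a replicate block, glmTreat, thinning, and leaving out each fish.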

Additional observations from a re-analysis of the deposited data

Results flagged for a closer look

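A fish far from the others was looked for in 46 sets of 6 values, each a library measure or a followed transcript in 1 group. It was found in 7 of them. The cutoff gives about 1 in 20 for independent normal values. The sets reuse the same fish and CPM values need not be normal, so the 7 cannot be compared with that rate. In Cu0h-1h replicate 1 the most abundant transcript held 5.65% of the effective counts, against 3.06% or less for the most abundant transcript of the other 5 fish of its group. It is not the transcript that led in the other fish, and its level in the control fish was 0.342% to 2.63%. Its log2 fold change between Cu0h-1h and control was -0.31 (FDR 0.794 from edgeR). ENSIPUT00000007028 was at 98.9 CPM in Cu0h replicate 3, with the next fish at 38.3, and at 5.28 CPM in control replicate 3, with the next at 1.90. ENSIPUT00000009696 was at 126 CPM in Cu0h replicate 1, with the next at 52.9, and at 6.28 CPM in control replicate 2, with the next at 1.90. These control values come from 3 counts each. ENSIPUT00000010649 was at 39.5 CPM in Cu0h replicate 5, with the next at 13.5, and at 10.9 CPM in Cu0h-24h replicate 6, with the next at 3.35.

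In the 3 followed transcripts that passed the filter, Cu0h-1h fish stood apart from Cu24h-1h fish, challenged 24 h after copper. The transcripts were chosen for their values in the same Cu0h-1h fish, so these differences are a description and not an independent test. The difference was 3.42 on the log2 scale for ENSIPUT00000007028, 3.54 for ENSIPUT00000009696 and -5.42 for ENSIPUT00000019250, and in each the 2 groups did not overlap.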

How the results depend on the processing

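The 2333 DEGs of Cu0h-1h against control were 734 with glmTreat and 1389 on thinned libraries, where 3644 transcripts were tested and 38.1% called. Under each of the other 7 fits of all fish the number stayed within 1.5 times, and with the replicate block it was 2272. These fits tested unlike numbers of transcripts. The share called was 10.2% with DESeq2's Wald test and 10.6% without the filter, each of 29747 transcripts, and 25.6% of 12680 with all 9 groups. Without the filter, 904 of the 1252 upregulated and 1059 of the 1081 downregulated transcripts stayed called. With 1 fish left out the number of DEGs was 2199 to 2671. The median log2 fold change over all tested transcripts, 0.14, was 0.25 with all 9 groups in 1 fit, 0.0733 with DESeq2's Wald test and between these under every other alternative. No DEG was called in the opposite direction under any alternative, but all of these reuse the fish that gave the DEGs. Same-numbered fish correlated by -0.115 to 0.128 in their deviations, and 0 of 6 Cu0h-1h fish correlated best with their own number. No pairing by number was thus seen, but 6 fish per group could hide a weak one. The difference in detected transcripts was 1744 to 1956 with 1 fish left out. That in the share of the 100 most abundant was -10.9 to -9.02 percentage points. Both kept their direction under all alternatives, with p at most 0.00433 in exact permutation tests. Since the groups did not overlap, leaving out a fish had to keep the direction and give 0.00433, the smallest possible p. Those fits are thus no further support. Depth limited the tests to 6604 of the 29747 transcripts counted.

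The comparisons set beside it moved far more. Cu0h against control, with 161 DEGs, gave 297 with DESeq2's Wald test, 432 without the filter, 373 with all 9 groups in 1 fit, 58 with the replicate block and 705 without Cu0h replicates 5 and 6. It gave 78, 93, 88, 66, 86 and 71 without control replicate 1 to 6 and 103, 91 and 277 without Cu0h replicate 1, 2 or 5. Cu0h-1h against Cu0h, with 515, gave 960, 212, 1380, 184 and 2506 under the same 5 settings. Omitting single Cu0h fish, in the order of their numbers, gave 90, 67, 44, 11, 1115 and 1206, and omitting Cu0h-1h replicate 2, 4, 5 or 6 gave 4, 2, 3 and 2. Cu0h-4h against Cu0h, with 35, gave 519, 380, 785, 5 and 1991. Omitting Cu0h replicates 1 to 6 one by one gave 3, 5, 12, 7, 347 and 504, and omitting those of Cu0h-4h gave 12, 7, 18, 74, 2 and 3. With DESeq2's size factors its split was 12 upregulated to 13 downregulated, where it had been 22 to 13. Cu24h-1h against Cu24h, with 40, gave 139, 400 and 280 with the Wald test, without the filter and with all 9 groups, and 1012 without Cu24h replicates 1 and 3. It gave 81 and 144 without Cu24h replicate 1 or 3 and 23 without Cu24h-1h replicate 3. Cu0h-1h against Cu24h-1h, with 1002, stayed within 1.5 times under all its alternatives. The settings without a pair of fish were chosen after the data were seen. Causes were not tested.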
